A study of Drosophila melanogaster with 10 samples.

Results

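The experiment set JIL-1 5′ dsRNA against GST dsRNA in Drosophila melanogaster S2 cells, an embryonic male line that resembles macrophage-like blood cells. Its members are the 5 arrays labelled batch A, of 10 in the series: 2 arrays of cells that received double-stranded RNA (dsRNA) from the 5′ portion of JIL-1, numbered replicates 1 and 2, and 3 arrays of cells that received dsRNA against GST as the control, numbered replicates 1 to 3. The labels do not say which GST sequence was used. All cells, the controls included, were exposed to 10 µg of dsRNA for 1 h without serum, split on day 3 and harvested on day 7. The series calls its samples biological replicates but names no separate cultures, so the p-values measure the spread between these samples. Labelled batch B held 3 arrays with a dsRNA from the 3′ portion of JIL-1 and 2 arrays with EGFP dsRNA, and it serves only to show where the batch A changes differed.

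Long dsRNA taken up by S2 cells is cut into small interfering RNAs that direct the destruction of the matching transcript. JIL-1 is a kinase that sits on chromatin of active genes through interphase and phosphorylates a serine of histone H3, and in males it is enriched on the X chromosome beside the dosage compensation complex. In flies its loss lets heterochromatin marks spread, and the X chromosome of males is among the structures most visibly altered.

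Each array gave GCRMA values, a log2 measure of hybridisation signal for a set of probes against a transcript. One probe set stood for each gene, the one with the highest mean over the 5 arrays, and the tests covered rows whose mean exceeded 4, 6681 of 17105, some of them probe sets without a gene name. That minimum removed 10424, of which 9 lay above 4 on both JIL-1 5′ arrays and 9 on all 3 GST arrays. At its edge CG5151 (mean 4.002, change -0.31) lay just inside and hng3 (mean 3.999, change -0.61) just outside. Many probe sets sat at the lower end of the scale, between 50.5% and 51.2% of an array within 0.01 of the lowest value of 2.199, so a value under 4 has no dependable order. Where a gene had such a value, its fold is given after values under 4 were raised to 4, as a lower bound. The medians of the tested values ran from 9.31 to 9.34 on the JIL-1 5′ arrays and from 9.24 to 9.33 on the GST arrays. The SD of the difference was 0.228 between the JIL-1 5′ arrays, 0.210 to 0.263 between GST arrays and 0.456 to 0.511 between arrays of the 2 groups, and no array duplicated another. The 3′ minus 5′ signal of the array's actin control was 0.56 and 0.59 on the JIL-1 5′ arrays against 0.54, 0.66 and 0.57 on the GST arrays. That of the GAPDH control was 0.59 and 0.74 on the JIL-1 5′ arrays against 0.55, 0.56 and 0.38 on the GST arrays, higher in both JIL-1 5′ samples, and its part in the results was not tested. All changes are JIL-1 5′ minus GST on the log2 scale, with the standard error (SE) and the Benjamini-Hochberg adjusted p of a limma fit to these 5 arrays, and "rose" and "fell" mean an adjusted p under 0.05.

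The targeted transcript was low in both knockdown samples. JIL-1, on arm 3L, had log2 values of 4.35 and 4.35 with JIL-1 5′ dsRNA, against 5.79, 5.95 and 5.66 with GST dsRNA. The groups did not overlap, and the transcript fell by 1.45 (SE 0.11, limma adjusted p = 0.0011), a level 2.73-fold lower. The 2 JIL-1 5′ values lay close to the dim end of the scale, where GCRMA compresses differences. Left out one at a time, the arrays gave changes from -1.52 to -1.37, all past the threshold.

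With JIL-1 5′ dsRNA 662 of the 6681 tested rose (9.91%) and 505 fell (7.56%), together 1167 or 17.5%. Among those with a single gene name, 615 rose and 442 fell. The falls were the larger changes: 162 falls (2.42%) and 41 rises (0.614%) reached 2-fold, 56 falls and 3 rises reached 4-fold, and 14 falls and 1 rise reached 8-fold. These counts, and those by level below, take values under 4 as they stand. With such values raised to 4, some falls no longer reached 8-fold or 4-fold. LManI went from 13.9-fold to 4.73-fold and Sr-CIV from 5.50-fold to 3.08-fold. The median rise was 0.51 and the median fall -0.76. Of all tested, 62.0% had a positive change, and the median change was 0.072, within the spread of the array medians above. The balance of rises and falls depended on the scaling: with each array centred on the common median there were 614 rises and 652 falls. The count of calls leaned on each JIL-1 5′ array: without replicate 1 there were 30 rises and 171 falls, and without replicate 2 there were 43 rises and 149 falls, in fits where the lone array is assumed to vary like the GST arrays. Leaving out a GST array left 230 rises and 310 falls without replicate 1, 346 and 415 without replicate 2, and 540 and 351 without replicate 3.

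**Figure D1:**
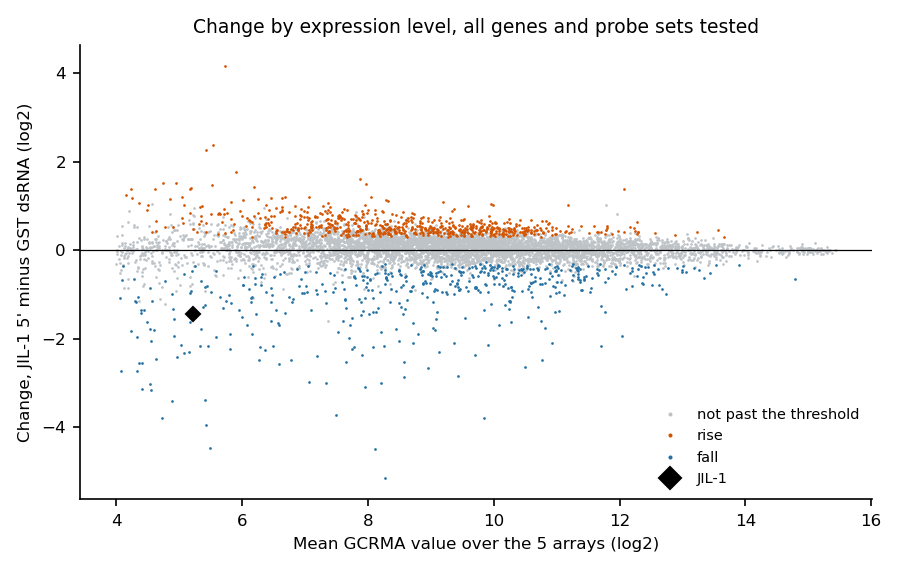
Change of each of the 6681 tested genes and probe sets (vertical axis, JIL-1 5′ minus GST dsRNA, log2) against its mean over the 5 arrays (horizontal axis, log2). Orange points are the 662 rises, blue points the 505 falls, grey points those not past the threshold and the diamond JIL-1, and the falls reach farther from 0 than the rises, most of all on the dimmer side.

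The large changes sat on the dimmer side of the scale. Of 5 equal sets of genes ordered by mean value, the dimmest (means from 4.002 to 7.492) held 187 rises and 128 falls, of which 30 and 79 reached 2-fold. The brightest set (means from 11.024 to 15.446) held 34 rises and 84 falls, of which 2 and 6 reached 2-fold. The median change was 0.12 in the dimmest set and 0.0065 in the brightest, and the median SE was 0.14 and 0.088. In 33 falls, 28 of them with a gene name, both JIL-1 5′ arrays lay under 4 and all 3 GST arrays above it. The reverse held for 3 rises, CG15202, Asph and CG13248, which were singled out after their values were seen. The 2 counts are not on equal terms, since the minimum mean took in 3 GST but 2 JIL-1 5′ arrays. A gene bright only with GST dsRNA passed that minimum more easily than a gene bright only with JIL-1 5′ dsRNA. Falls admitted through their GST values, such as Sr-CIV and Cyp6a13, also count in the gene lists below.

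Cyt-c1L, which encodes a relative of cytochrome c1, an electron carrier of mitochondria, rose most of all named genes. Its log2 values were 8.44 and 8.02 with JIL-1 5′ dsRNA, against 3.82, 3.74 and 4.64 with GST dsRNA, and it was at least 16.2-fold higher (change 4.16, SE 0.29, adjusted p = 0.000976). Both knockdown arrays thus lay well inside the measurable range while 2 of the 3 GST arrays lay under 4. Cyp4d20, a cytochrome P450, had values of 7.11 and 6.81 with JIL-1 5′ dsRNA and 4.99, 4.36 and 4.41 with GST dsRNA (change 2.37, SE 0.21, adjusted p = 0.002, 5.19-fold). Ids, which encodes a sulfatase that in humans removes sulfate from glycosaminoglycans in lysosomes, had values of 6.65 and 6.91 with JIL-1 5′ dsRNA and 4.52 on each of the 3 GST arrays (change 2.26, SE 0.10, adjusted p = 0.000176, 4.79-fold). All 3 GST values of Ids were 4.5179, as was replicate 3 with the 3′ dsRNA. Equal values of this kind give no spread, and whether they are measured levels or background was not tested. SkpB, a Skp1-like subunit of ubiquitin ligases, had values of 7.01 and 6.91 with JIL-1 5′ dsRNA and 5.20, 4.78 and 5.58 with GST dsRNA (change 1.77, SE 0.23, adjusted p = 0.0068, 3.42-fold). In all 4 genes the groups were separated by more than the spread within either, though the GST values of Ids had none.

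The other 11 largest rises had changes from 1.247 to 1.599. They included CG46339 (1.599), CG8547 (1.52), CG4586 (1.39), CG42395 (1.38), TTLL4B (1.53), of a family that adds amino acid chains to tubulin, and Apoltp (1.44), a lipid transfer apolipoprotein of the blood. Apoltp had values of 7.18 and 6.92 with JIL-1 5′ dsRNA and 5.66, 5.72 and 5.45 with GST dsRNA. CG4872 was the largest rise on the X chromosome, with 8.98 and 8.75 with JIL-1 5′ dsRNA and 7.44, 7.28 and 7.39 with GST dsRNA (change 1.496, SE 0.10, adjusted p = 0.000933). fw, which encodes a cell surface protein of the selectin kind, CG13248 and CG15202 had GST values near or under 4, and the lower bounds of their rises were 2.57-fold, 2.08-fold and 1.87-fold. cuff, a partner of Rhino in germ line piRNA transcription, had 6.16 and 6.63 with JIL-1 5′ dsRNA and 4.66, 4.66 and 5.46 with GST dsRNA (change 1.47, SE 0.28, adjusted p = 0.0226). Without one array or another its adjusted p lay between 0.0107 and 0.158, and that of CG13248 was 0.0255 without JIL-1 5′ replicate 1 and 0.0569 to 0.0917 without any other array. Without JIL-1 5′ replicate 1 or replicate 2, SkpB (adjusted p 0.0823 and 0.0707), CG4586 (0.108 and 0.0716) and CG42395 (0.0515 and 0.0663) also missed it, as did CG46339 without replicate 2 (0.0553).

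The largest fall was that of CG34330 on the X chromosome, an uncharacterised gene. It had log2 values of 4.20 and 6.14 with JIL-1 5′ dsRNA, against 10.3, 10.3 and 10.4 with GST dsRNA (change -5.17, SE 0.52, adjusted p = 0.0032, 35.9-fold lower). The knockdown arrays differed by more than 1 unit and still lay far under every GST array. Swim, a secreted cathepsin-like protein that binds Wingless, had 5.52 and 5.31 with JIL-1 5′ dsRNA and 10.2, 9.75 and 9.76 with GST dsRNA (change -4.49, SE 0.16, adjusted p = 0.000176, 22.5-fold lower). LManI, a lysosomal mannosidase that trims sugars, had 2.44 and 2.44 with JIL-1 5′ dsRNA and 6.42, 6.11 and 6.20 with GST dsRNA, and was at least 4.73-fold lower (change -3.80, SE 0.11, adjusted p = 9.85e-05). Both JIL-1 5′ values of LManI lay at the foot of the scale. Erasp had 5.77 and 4.74 with JIL-1 5′ dsRNA and 9.14, 8.904 and 8.94 with GST dsRNA (change -3.74, SE 0.29, adjusted p = 0.0014, 13.3-fold lower).

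Of the remaining 11 largest falls, 6 ended under 4 on both JIL-1 5′ arrays. These were firl, CG31769, CG40006, CG31974, Cyp6a13 and CG14990, with lower bounds of 9.73-fold, 8.08-fold, 4.74-fold, 6.78-fold, 3.52-fold and 3.35-fold for the decrease. The ranking took values under 4 as they stand. With these raised to 4, LManI (-2.24), CG40006 (-2.25), Cyp6a13 (-1.81) and CG14990 (-1.74) fell by less than NimB2 (-2.66), which is outside the 15. firl had 3.15 and 2.46 with JIL-1 5′ dsRNA and 7.20, 7.32 and 7.33 with GST dsRNA. The other 5 remained measurable. Prx6c, a peroxiredoxin that reduces peroxides, had 6.26 and 6.56 with JIL-1 5′ dsRNA and 9.68, 9.09 and 9.44 with GST dsRNA (change -2.998, SE 0.19, adjusted p = 0.000658). Obp99c, of the odorant-binding protein family of small secreted carriers, had 5.22 and 5.33 with JIL-1 5′ dsRNA and 8.39, 8.03 and 8.35 with GST dsRNA (change -2.98, SE 0.13, adjusted p = 0.000176). CG8353 (-3.10), nahoda (-3.004) and CG3984 (-2.87) changed by about as much. All 15 largest falls kept their call whichever array was left out.

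**Figure D2:**
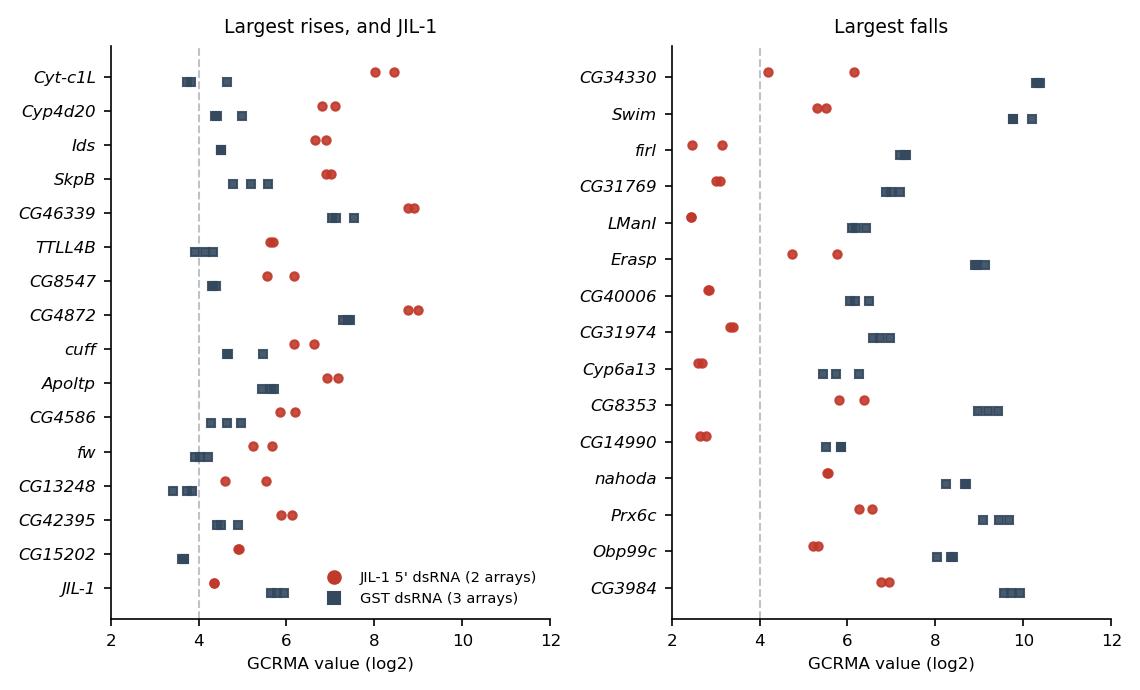
GCRMA value (log2, horizontal axis) on each array for the 15 largest rises and JIL-1 (left) and the 15 largest falls (right), with red circles for the 2 JIL-1 5′ arrays and dark squares for the 3 GST arrays. The dashed line stands at 4, and in every gene shown the 2 sets of points are separate.

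Many genes for recognising and engulfing particles fell. Of 15 phagocytosis and scavenger receptor genes tested, 9 fell and 1 rose, against 7.56% falls and 9.91% rises over all tested. The median change of the 15 was -0.84. Such receptors let blood cells bind bacteria and dying cells. NimC1, a Nimrod receptor for bacteria, had 9.37 and 9.94 with JIL-1 5′ dsRNA and 11.8, 11.6 and 11.9 with GST dsRNA (change -2.11, SE 0.18, adjusted p = 0.0019, 4.31-fold lower). NimB2, a secreted Nimrod protein, had 7.50 and 7.21 with JIL-1 5′ dsRNA and 10.1, 9.93 and 10.0 with GST dsRNA (change -2.66, SE 0.12, adjusted p = 0.000176, 6.33-fold lower). Every one of the 5 NimB genes fell, NimB3 by 1.99, NimB1 by 0.90, NimB4 by 0.84 and NimB5 by 0.65. The scavenger receptors Sr-CI, with 10.8 and 11.1 with JIL-1 5′ dsRNA and 12.3, 12.3 and 12.4 with GST dsRNA (-1.40), and Sr-CIV (-2.46, at least 3.08-fold lower) fell, as did drpr (-0.94), the receptor for dying cells. Sr-CIV, at 3.44 and 2.88 with JIL-1 5′ dsRNA, passed the minimum mean through its GST values and counts among the 9 falls. The change of eater, another Nimrod receptor, was -0.26 (adjusted p = 0.0921), that of crq, a CD36-like receptor, -0.39 (adjusted p = 0.0631) and that of pes, of the same family, -0.059 (adjusted p = 0.644). The single rise was Dscam1 (0.42, adjusted p = 0.0443), an immunoglobulin superfamily receptor, and it missed the threshold without any 1 of the 5 arrays. The count of falls was between 6 and 9 with 1 array left out.

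General blood cell markers were mostly not past the threshold. The 21 plasmatocyte markers had a median change of -0.07 and a mean of -0.31. At an unadjusted limma p under 0.05, 7 of them were lower and 1 higher. Of the 21, 4 fell and none rose, against 7.56% falls and 9.91% rises over all tested. The 4 were NimC1, Sr-CI, drpr and Ppn, an extracellular matrix protein (-0.81), the first 3 of which are also members of the receptor list. Hml, which encodes hemolectin, had 12.6 and 12.6 with JIL-1 5′ dsRNA and 12.9, 12.8 and 12.7 with GST dsRNA (change -0.18, adjusted p = 0.182), and Pxn, a peroxidasin, had 13.6 and 13.6 with JIL-1 5′ dsRNA and 13.7, 13.6 and 13.6 with GST dsRNA (-0.042, adjusted p = 0.749). Both were among the brighter genes and their groups lay within 0.3 of each other. Fewer cells of a kind and less RNA per cell cannot be told apart in such bulk samples. The crystal cell enzymes PPO1 (-0.43, adjusted p = 0.0396) and PPO2 (-0.47, adjusted p = 0.0446) and the lamellocyte markers PPO3 (-0.55, adjusted p = 0.0352) and CG15347 (-1.54, adjusted p = 0.0014) fell, of 2 and 5 tested. The 5 lamellocyte markers had a median change of -0.056, and none besides PPO3 and CG15347 had an unadjusted limma p under 0.05. Without either JIL-1 5′ array the 3 PPO genes missed the threshold. PPO1 also missed it without each GST array in turn (limma adjusted p 0.0567 to 0.0868). Some markers of other tissues had no probe set of their own. Of those that did, 1 of 6 for muscle, 5 of 11 for neurons and glia, 1 of 11 for testis and 0 of 6 for fat body reached the tested range. Among them moody, a receptor of the glial barrier, rose (0.51, adjusted p = 0.0314). Its call was lost without GST replicate 2 or 3 (limma adjusted p 0.0693 and 0.0723). The call was also lost without JIL-1 5′ replicate 1 or 2, where its change was 0.59 or 0.43.

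In the humoral branch of immunity, the Imd and Toll pathways and the antimicrobial peptides they induce, 7 of 24 genes fell, none rose and the median change was -0.35. Over all tested 7.56% fell and 9.91% rose. Mtk, an antimicrobial peptide gene, had 4.796 and 4.77 with JIL-1 5′ dsRNA and 7.55, 7.21 and 7.03 with GST dsRNA (change -2.48, SE 0.16, adjusted p = 0.000658, 5.57-fold lower). Drs, an antifungal peptide, fell by 0.91, and the receptor Tl and the NF-kappa-B factor dl fell by 0.61 and 0.74. dl had 8.99 and 8.94 with JIL-1 5′ dsRNA and 9.77, 9.62 and 9.74 with GST dsRNA, so the groups were apart by more than the spread within each. The remaining falls were those of Tep4, a thioester protein (-0.82), and of the recognition genes PGRP-LA (-0.67) and GNBP2 (-0.39). Rel, the NF-kappa-B factor of the Imd pathway, changed by -0.73 (SE 0.23, adjusted p = 0.0848), with 1 of its GST values, 11.8, standing above 11.07 and 11.02. The count of falls dropped to 1 without JIL-1 5′ replicate 1 and to 2 without replicate 2, where dl (adjusted p 0.0512 and 0.0576) and Tep4 (0.0979 and 0.0745) missed the threshold and Mtk did not. Among serpins and serine proteases, which hold blood proteolysis in check or carry it out, 4 of 7 fell and none rose. The 7 were those tested of 28 on the array. Spn77Ba had 9.51 and 9.77 with JIL-1 5′ dsRNA and 11.26, 10.99 and 11.21 with GST dsRNA (change -1.51, SE 0.13, adjusted p = 0.0018). The proteases Sp7 (-1.62) and grass (-1.38), both of blood cascades, kept their calls whichever array was left out, and Spn27A (-0.40, adjusted p = 0.0433) did not (up to 0.199).

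Among enzymes that modify foreign and lipid compounds many fell. Of 17 cytochrome P450 genes, 10 fell and 2 rose, against 7.56% falls and 9.91% rises over all tested. The median change of the 17 was -0.87. Cyp6a13, among the 10 falls, lay under 4 on both JIL-1 5′ arrays and passed the minimum mean through its GST values. The same held for Cyp4ac1, another P450 gene that fell. The minimum thus favoured falls of this kind. Cyp12a5, of the mitochondrial P450 group, had 7.36 and 7.19 with JIL-1 5′ dsRNA and 9.43, 9.24 and 9.29 with GST dsRNA (change -2.05, SE 0.10, adjusted p = 0.000249, 4.13-fold lower), and Cyp28a5 had 7.81 and 8.39 with JIL-1 5′ dsRNA and 10.2, 10.1 and 10.3 with GST dsRNA (-2.10, SE 0.18, adjusted p = 0.0018). Cyp4p1 fell by 1.598, and the 2 rises were Cyp4d20 and Cyp310a1 (0.93). The P450 genes thus held both the second largest rise of the experiment and 10 falls. The count of falls was 4 without JIL-1 5′ replicate 1, 5 without replicate 2 and 9 or 10 without a GST array, and 30 further P450 genes were too dim to be tested. Of 27 glutathione transferase and UDP-glycosyltransferase genes, which attach a carrier to a compound, 7 fell and 2 rose, and 4 fell without either JIL-1 5′ array. Ugt37D1 had 7.83 and 7.61 with JIL-1 5′ dsRNA and 10.4, 10.6 and 10.6 with GST dsRNA (change -2.84, SE 0.11, adjusted p = 0.000176, 7.17-fold lower), and GstE2 (-1.15), Ugt35A1 (-1.05) and GstE7 (-0.80) also fell. Since the control dsRNA is labelled GST, whether any fly glutathione transferase was lowered by it in the control cells was not tested.

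The lysosome list held changes of both signs, where 7.56% of all tested fell and 9.91% rose. Of 18 genes, 5 fell and 1 rose, the falls being Swim, LManI, LManII, Ect3 and Npc2a and the rise Ids. LManII, another mannosidase, had 8.07 and 7.90 with JIL-1 5′ dsRNA and 9.90, 9.69 and 9.78 with GST dsRNA (change -1.81, SE 0.10, adjusted p = 0.000391, 3.49-fold lower). Ect3, a beta-galactosidase, fell by 1.38 and Npc2a, a sterol carrier, by 0.49, and 3 falls were left without either JIL-1 5′ array. The cathepsins CtsB, CtsF, CtsK1 and CtsL1 had changes from -0.05 to 0.10 and adjusted p of at least 0.478. Of 15 subunits of the V-ATPase, which acidifies lysosomes, 2 fell, VhaM9.7-b (-0.41) and Vha100-2 (-0.57), and none fell without either JIL-1 5′ array. In lipid storage and transport 4 of 19 fell and 3 rose. The falls were those of Lsd-1, a perilipin that coats lipid droplets (-1.17), bgm, an acyl-CoA synthetase (-0.91), Lip4, a lipase (-0.85), and wun2, a lipid phosphatase (-0.50), and the rises those of Apoltp, Mtp (0.49) and apolpp (0.42), which make or carry lipoproteins. Without JIL-1 5′ replicate 1 there were 1 rise and 1 fall, and without replicate 2 there were 1 rise and 0 falls, Apoltp being the rise that held in both.

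**Figure D3:**
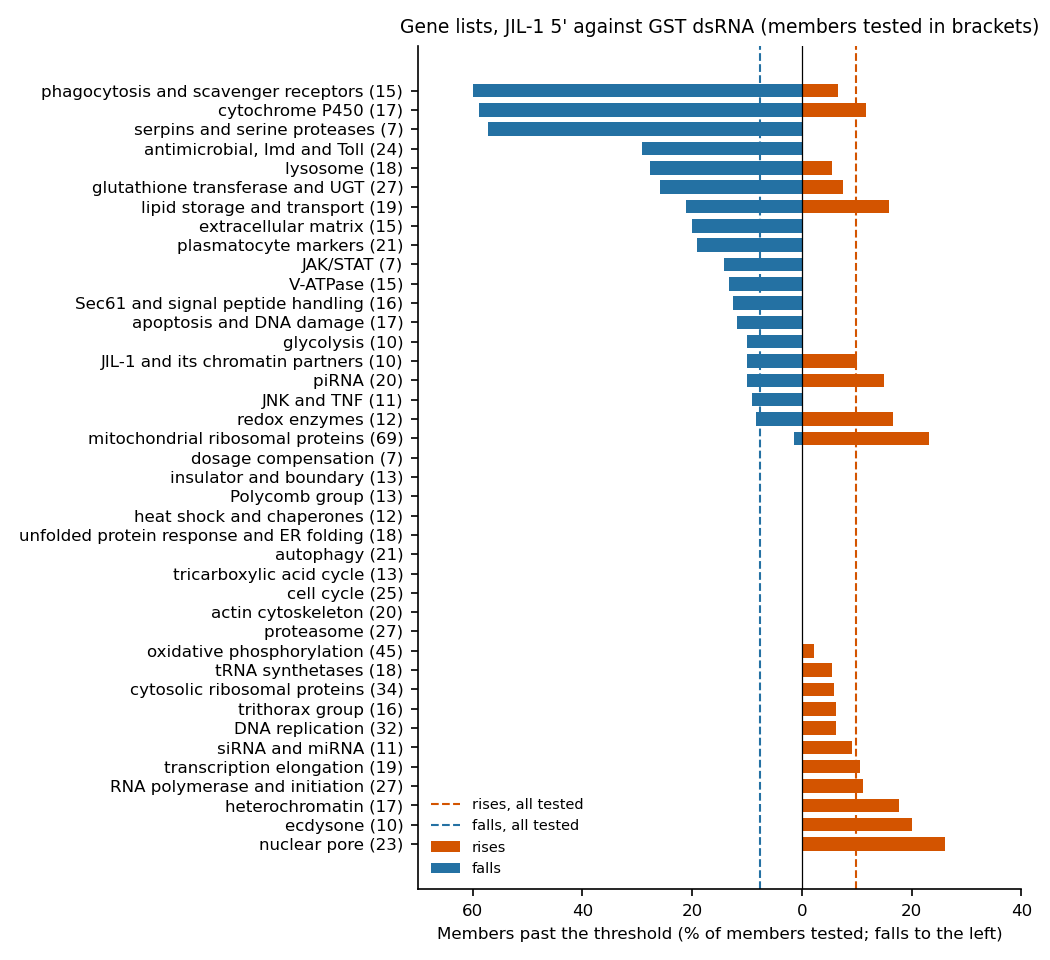
Share of tested members past the threshold in each gene list with 7 or more members tested, falls to the left in blue and rises to the right in orange, both in percent, with the number of members tested in brackets. The dashed lines mark the shares over all tested, 7.56% falls and 9.91% rises, and phagocytosis receptors, P450 genes and serpins with proteases extend farthest to the left.

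Of 10 genes for JIL-1 and its partners on chromatin, 2 passed the threshold, a share near the 17.5% of all tested: JIL-1 fell and Jasper, a PWWP protein bound to it, rose. Jasper had 11.3 and 11.3 with JIL-1 5′ dsRNA and 10.9, 10.8 and 10.9 with GST dsRNA (change 0.43, SE 0.08, adjusted p = 0.0192), and missed the threshold without either JIL-1 5′ array (0.109 and 0.118). Chro, the chromodomain partner, changed by 0.06 (adjusted p = 0.674), and the readers of the phosphorylated histone 14-3-3zeta and 14-3-3epsilon by 0.30 (adjusted p = 0.0772) and -0.01 (adjusted p = 0.95). None of the 7 dosage compensation genes passed the limma threshold, and 3 had an unadjusted p under 0.05, all higher. The median of the 7 was 0.25, with msl-2, the male-specific subunit, at 8.48 and 8.98 with JIL-1 5′ dsRNA and 8.12, 8.25 and 8.40 with GST dsRNA (change 0.47, SE 0.17, adjusted p = 0.111), mle, the helicase, at 0.25 (adjusted p = 0.0934) and mof, the acetyltransferase, at -0.05 (adjusted p = 0.768). In the fit of 4 means over all 10 arrays, which has more residual degrees of freedom, the same changes of msl-2 and mle passed (0.0362 and 0.0228), and 3 of the 7 genes did.

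Among 17 heterochromatin genes 3 rose and none fell, against 9.91% rises and 7.56% falls over all tested. wde, a cofactor of the histone methyltransferase eggless, had 7.97 and 7.95 with JIL-1 5′ dsRNA and 7.05, 7.16 and 7.48 with GST dsRNA (change 0.73, SE 0.14, adjusted p = 0.0217). Su(var)3-7, a zinc finger partner of HP1, rose by 0.76 (adjusted p = 0.0355) and Su(var)3-3, a histone demethylase, by 0.44 (adjusted p = 0.032), while the gene of HP1 itself changed by 0.14 (adjusted p = 0.248). With either JIL-1 5′ array left out the adjusted p of the 3 rises lay between 0.102 and 0.202. None of 13 insulator and 13 Polycomb group genes passed the limma threshold, and 3 and 2 of them had an unadjusted p under 0.05, all higher. The smallest p among them belonged to su(Hw) (0.40, adjusted p = 0.064), CTCF (0.29, adjusted p = 0.0848), E(z) (0.24, adjusted p = 0.102) and Sfmbt (0.30, adjusted p = 0.123), and su(Hw) passed without GST replicate 2 (0.0412). Of 16 trithorax group genes osa, a Brahma complex subunit, rose (0.50, adjusted p = 0.018), and of 19 elongation factor genes Hexim, the inhibitor of P-TEFb (0.46, adjusted p = 0.0186), and ear, of the super elongation complex (0.52, adjusted p = 0.0244). All 3 missed the threshold without JIL-1 5′ replicate 1 or replicate 2, at 0.0912 to 0.14.

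Of 69 mitochondrial ribosomal protein genes, whose products translate the proteins encoded in mitochondria, 16 rose and 1 fell, with a median change of 0.23. Over all tested 9.91% rose and the median was 0.072. mRpL54 had 9.05 and 8.77 with JIL-1 5′ dsRNA and 8.04, 8.09 and 8.25 with GST dsRNA (change 0.79, SE 0.12, adjusted p = 0.0116), and mRpL51, mRpS16 and mRpL13 rose by 0.62, 0.53 and 0.51. The count of rises was 0 without JIL-1 5′ replicate 1, 2 without replicate 2, and 4, 7 and 8 without GST replicates 1, 2 and 3. Of 23 nuclear pore genes 6 rose and none fell, with a median of 0.22. mbo, which encodes a nucleoporin, had 8.33 and 8.20 with JIL-1 5′ dsRNA and 7.57, 7.35 and 7.57 with GST dsRNA (change 0.77, SE 0.11, adjusted p = 0.0087), and Nup133, Nup43 and Nup37, of the pore's scaffold, rose by 0.61, 0.50 and 0.46. None of the 6 passed without either JIL-1 5′ array, and 3 passed without GST replicate 1.

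Of 27 RNA polymerase and initiation factor genes 3 rose, Taf10 (0.41), Polr2K (0.40) and Polr2J (0.36), none of which passed without either JIL-1 5′ array. Taf10 and Polr2J also missed the threshold without each GST array in turn. Cytosolic ribosomal protein genes gave 2 rises of 34, RpS19b, a paralog with 6.27 and 6.13 with JIL-1 5′ dsRNA and 5.43, 5.27 and 5.44 with GST dsRNA (0.82, adjusted p = 0.0049), and RpLP0-like (0.51). Among 45 oxidative phosphorylation genes ATPsynC rose (0.30, adjusted p = 0.0479), and among 18 tRNA synthetases beta-PheRS (0.45). ATPsynC missed the threshold without each GST array in turn. Over all tested 9.91% rose, and the RNA polymerase, ribosomal protein, oxidative phosphorylation and tRNA synthetase lists lay near or under that share. DNA replication, also under it, gave 2 rises of 32, Orc2 (0.41) and Prim1 (0.40), and the ecdysone list 2 of 10, the nuclear receptor gene Hr39 (0.82) and the early gene br (0.69). Except for RpS19b, none of these calls held without JIL-1 5′ replicate 2, and none at all held without replicate 1. No member of the lists for proteasome (27), cell cycle (25), autophagy (21), actin cytoskeleton (20), unfolded protein response (18), tricarboxylic acid cycle (13) or heat shock and chaperones (12) passed the limma threshold. At an unadjusted p under 0.05 the proteasome list had 4 higher and 1 lower, the actin list 4 lower, and each of the others 1 to 3 in all. Hsp26, a small heat shock protein, came nearest, with 12.3 and 12.5 with JIL-1 5′ dsRNA and 10.9, 11.5 and 11.8 with GST dsRNA (change 1.01, SE 0.27, adjusted p = 0.0522). It passed without GST replicate 1 (0.0435) or replicate 3 (0.0439). Atg16, of the autophagy list, passed without GST replicate 3 (0.0473), and mAcon1, the aconitase of the tricarboxylic acid cycle, without GST replicate 2 (0.0426).

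The piRNA pathway guards the germ line genome against transposons. Of its 20 genes tested 3 rose and 2 fell, against 9.91% rises and 7.56% falls over all tested. rhi, which encodes the HP1 relative that marks piRNA clusters, had 8.46 and 8.51 with JIL-1 5′ dsRNA and 7.62, 7.5997 and 7.74 with GST dsRNA (change 0.83, SE 0.08, adjusted p = 0.0032). cuff rose too, and the helicase gene armi rose by 0.52. AGO3 and aub, the slicing Argonautes, fell. AGO3 had 8.001 and 8.24 with JIL-1 5′ dsRNA and 9.06, 9.02 and 9.07 with GST dsRNA (change -0.93, SE 0.10, adjusted p = 0.0036), and aub 9.17 and 9.23 with JIL-1 5′ dsRNA and 9.90, 10.1 and 10.1 with GST dsRNA (-0.84, SE 0.10, adjusted p = 0.0052). rhi and AGO3 held without either JIL-1 5′ array, and aub (0.0679 and 0.0576) and armi (0.0868 and 0.0911) did not. Dcr-2 changed by -0.26 (adjusted p = 0.185) and r2d2 by 0.16 (adjusted p = 0.526), both of which serve the RNA interference used to lower JIL-1. Falls made up 1 of 7 JAK/STAT, 1 of 11 JNK and TNF, 3 of 15 matrix and 2 of 17 apoptosis genes. None of these genes rose, where 7.56% of all tested fell and 9.91% rose. The list medians were 0.10, -0.02, -0.10 and 0.06. Besides Ppn, named above, the falls were et, a JAK/STAT receptor antagonist (-0.91), and trol, the perlecan (-0.84). Mmp2, a matrix protease of the JNK and matrix lists (-0.77), the caspase gene Dronc (-0.46) and Debcl, of the Bcl-2 family (-0.38), also fell. Of these, et alone kept its call without either JIL-1 5′ array, and Debcl also missed the threshold without each GST array in turn.

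The median change was lower on the X chromosome than on the large autosomes. Of 988 X-linked genes, 64 rose (6.48%) and 70 fell (7.09%), with a median change of -0.015. The arms 2L, 2R, 3L and 3R held 4777 tested genes, of which 546 (11.4%) rose and 364 (7.62%) fell, with a median change of 0.098. Falls of 2-fold or more made up 1.42% of X-linked genes and 2.70% of genes on the large autosomes. Each large autosome arm had a median between 0.089 and 0.117, and the 42 genes of chromosome 4 one of 0.034. The gap between the X and the large autosomes was -0.11. In the other divisions of the 5 arrays into 2 and 3 it ran from -0.032 to 0.082, and the exact permutation test gave p = 0.1 (two-sided), the smallest that 10 divisions allow. The design therefore cannot reach 0.05 here. With 1 array left out the gap lay between -0.12 and -0.10.

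**Figure D4:**
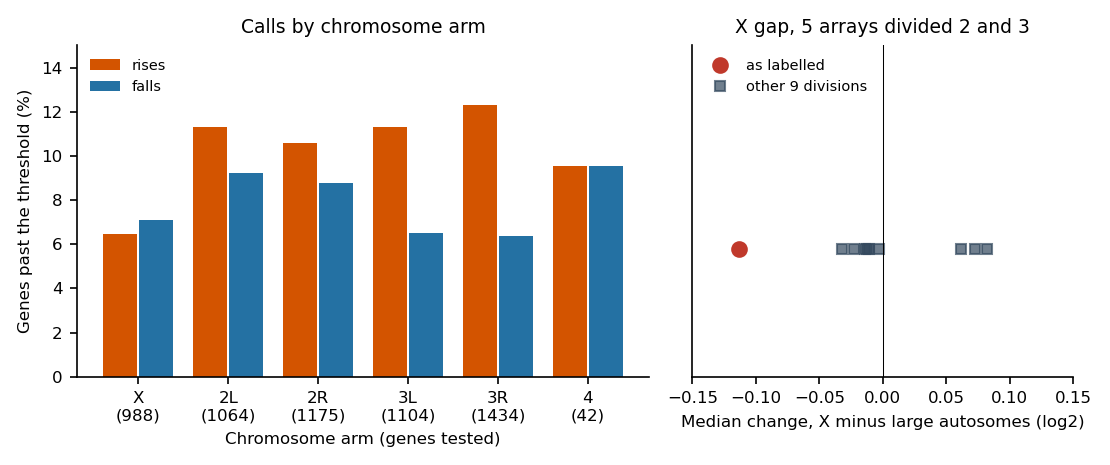
Left, share of tested genes that rose (orange) and fell (blue) on each chromosome arm, in percent, with the number tested in brackets, the X having the lowest share of rises at 6.48%. Right, the median change of X-linked minus large autosome genes (log2) for the 2 JIL-1 5′ against the 3 GST arrays (circle, -0.11) and for the other divisions of the 5 arrays (squares).

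The changes were set beside those of the second dsRNA, which targets the 3′ portion of JIL-1, to see which differed. dsRNA, control dsRNA and batch cannot be told apart in this difference, and the comparisons share no samples. With the 3′ dsRNA, JIL-1 had 5.66, 5.78 and 5.84 against 7.53 and 7.34 with EGFP dsRNA, a change of -1.67, and the difference between the 2 changes was 0.22 (limma, 10 arrays, adjusted p = 0.499). In the same fit 1178 of the 6681 (17.6%) changed with the 3′ dsRNA, 497 rises and 681 falls. Of the 505 falls with the 5′ dsRNA, 381 also fell with the 3′ dsRNA, 75.4% of the 5′ falls and 55.9% of the 3′ falls. Of the 662 rises, 249 also rose, 37.6% of the 5′ rises and 50.1% of the 3′ rises. The direction was the same in 96.4% of the falls and 93.4% of the rises, against 75.0% of all tested, and 3 of the falls rose with the 3′ dsRNA. The median change of the 5′ falls was -0.62 with the 3′ dsRNA and that of the 5′ rises 0.25. Across genes, which are not independent replicates, the changes had a Pearson r of 0.767.

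Among the largest changes, those of Erasp and Apoltp differed by 0.066 and 0.0044 between the dsRNAs (adjusted p = 0.961 and 0.997). For Cyt-c1L and CG40006, which lay under 4 on some arrays, the difference was 0.35 and 0.34 with values under 4 raised to 4 (adjusted p = 0.658 and 0.379). None of these 4 differences passed the threshold, which does not show that the changes were equal. Cyt-c1L had 7.83, 7.87 and 7.29 with the 3′ dsRNA and 3.90 and 3.34 with EGFP dsRNA. NimC1, which started lower in batch B, had 4.76, 5.36 and 4.62 with the 3′ dsRNA and 7.33 and 6.84 with EGFP dsRNA, a change of -2.18 against -2.11 with the 5′ dsRNA. The mitochondrial ribosomal protein genes had a median change of 0.015 with the 3′ dsRNA against 0.23 with the 5′ dsRNA, a contrast that was not tested for the list.

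The difference itself passed the threshold for 97 of the 6681 (1.45%), 43 with a higher and 54 with a lower change under the 5′ dsRNA. Among the 505 falls 61 differed, 44 of them falling further with the 5′ dsRNA, and among the 662 rises 17 differed, all of them rising further. Ids changed by 0.41 with the 3′ dsRNA, a difference of 1.85 (adjusted p = 0.000366), with 4.52, 4.50 and 4.50 with the 3′ dsRNA and 3.97 and 4.22 with EGFP dsRNA. Obp99c had 8.28, 8.11 and 8.02 with the 3′ dsRNA and 8.82 and 8.76 with EGFP dsRNA, so its change there was -0.65 and the difference -2.33 (adjusted p = 0.000366). The controls of both batches lay above 8 in this gene, and of the 10 arrays the 2 with the 5′ dsRNA lay near 5. CG3036 differed with the opposite sign, with 9.08 and 9.05 with the 5′ dsRNA and 8.91, 8.89 and 8.79 with GST dsRNA, but 8.04, 8.10 and 8.19 with the 3′ dsRNA and 9.53 and 9.55 with EGFP dsRNA (difference 1.63, adjusted p = 0.000209).

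For some of the differing genes the controls of the batches did not start at the same level. Cyp6a13 had 2.25, 2.24 and 2.31 with the 3′ dsRNA and 2.28 and 2.37 with EGFP dsRNA, at the foot of the scale throughout, so no fall could show there (difference -3.11, adjusted p = 0.000734, and -1.81 with values under 4 raised to 4, adjusted p = 0.0073). CG31769 (difference -2.21), CG31974 (-2.05) and CG14990 (-1.78) had EGFP values between 3.98 and 4.93 and had little room to fall. LManI started higher in batch B, with 5.78, 5.52 and 5.82 with the 3′ dsRNA and 7.75 and 7.70 with EGFP dsRNA (difference -1.78, adjusted p = 0.000781). With values under 4 raised to 4 its difference was -0.22 (adjusted p = 0.544).

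**Figure D5:**
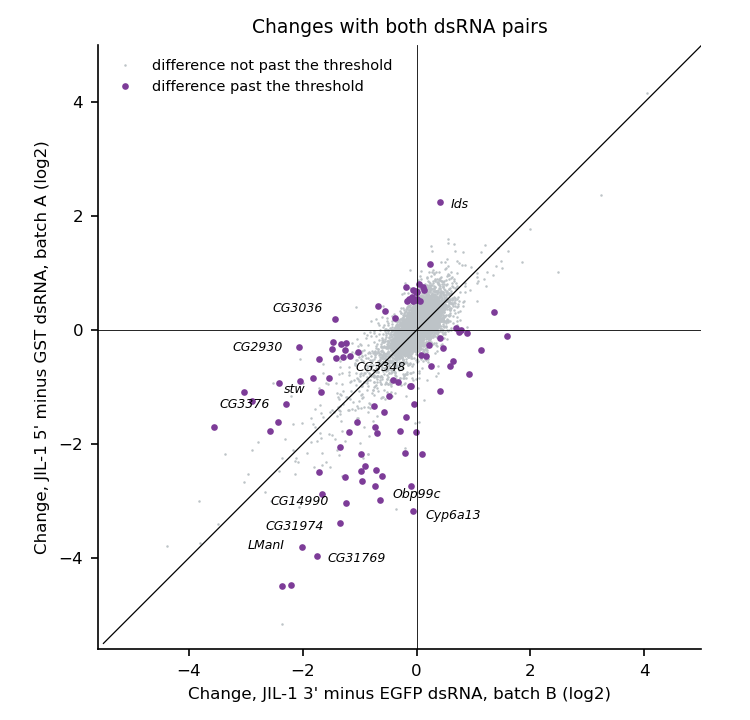
Change with the JIL-1 5′ dsRNA (vertical axis, against GST, batch A, log2) and with the 3′ dsRNA (horizontal axis, against EGFP, batch B, log2) for the 6681 tested genes and probe sets, with equal changes on the diagonal. Purple points are the 97 whose difference passed the threshold, and the names mark 6 genes above and 6 below the diagonal, taken by the smallest adjusted p.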

How the data were processed

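Total RNA of S2 cells was hybridised to single-colour Affymetrix arrays. RNA came from either of 2 Qiagen methods, per the labels' protocols, in an assignment to samples that was not known here. The authors deposited 1 log2 value per probe set and sample, made with GCRMA per the submitters' processing notes. The method estimates background from probe sequence, brings arrays to a common distribution and combines the probes of a set. No source used here gives its version or says if both batches went through it in 1 run.

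The array's 18952 probe sets included 183 controls. The supplied platform annotation listed 1 gene for 13647 of them, several for 402 and none for 4720. Current symbols and arms came from the Release 6 gene table, which 13544 matched. Control probe sets were left out. The 6681 rows tested comprised 5822 single-gene probe sets, 194 that name several genes and 665 unnamed ones. Probe sets may also bind transcripts of near-identical genes.

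Tests used lmFit and eBayes of limma 3.58.1 under R 4.3.3 on the 5 arrays (two-sided, 3 residual degrees of freedom), adjusted by Benjamini-Hochberg over all 6681, with a threshold of 0.05. A limma fit of 4 group means over all 10 arrays gave the changes with the 3′ dsRNA and the difference of changes. The X gap used an exact permutation over 10 divisions. The number of arrays limits the precision.

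Besides JIL-1, the rule for named genes took 15 rises and 15 falls, the largest with a single symbol and groups that do not overlap, up to 4 called members of each list with the smallest p (2 where none passed), 6 genes in each direction of the difference between dsRNAs with the lowest adjusted p, and the largest rise and fall on the X. A few other list members are named beside them, as called members of a counted list or as key members of a pathway, chosen after their values were seen. The members and the gene lists were chosen with earlier results of these data known, and 13 list symbols found no match.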

Additional observations from a re-analysis of the deposited data

Results flagged for a closer look

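In 12 genes the change with JIL-1 5′ dsRNA differed from the change with JIL-1 3′ dsRNA by the limma test of the difference over 10 arrays, in which dsRNA, control dsRNA and batch cannot be told apart. The change was higher with the 5′ dsRNA for Ids (difference 1.85), CG2930 (1.78), CG3036 (1.63), CG3376 (1.00), stw, a laccase (0.97), and CG3348 (0.82). It was lower for Cyp6a13 (-3.11), Obp99c (-2.33), CG31769 (-2.21), CG31974 (-2.05), CG14990 (-1.78) and LManI (-1.78). Among the first 6, CG3376, stw and CG3348 fell with both dsRNAs and had the larger fall with the 3′ dsRNA. Their changes with the 5′ and the 3′ dsRNA were -1.298 and -2.30 for CG3376, -0.84 and -1.81 for stw, and -0.47 and -1.29 for CG3348. CG2930 had log2 values of 4.82 and 5.09 with the 5′ dsRNA and 5.56, 5.06 and 5.13 with GST dsRNA, and 6.52, 6.65 and 6.53 with the 3′ dsRNA and 8.47 and 8.81 with EGFP dsRNA. All 12 differences kept their call whichever array of batch A was left out. With values under 4 raised to 4, the difference of LManI was -0.22 and missed the threshold, and that of Cyp6a13 was -1.81 and passed it.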

How the results depend on the processing

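No result reversed its direction under any alternative run. With no filter on the mean, 32 rises and 72 falls passed, the JIL-1 change of -1.45 had an adjusted p of 0.0649, the X gap was 0.0000 because most probe sets lie at the lower end, and 31 differences between dsRNAs were lower. The fit of 4 means gave 1167 rises, an adjusted p under 0.1 gave 1107 rises, and a minimum of 1.5-fold left 233 rises and 327 falls. Array weights gave 94 higher and 86 lower differences between dsRNAs. Leaving out 1 array gave 30 to 540 rises, 149 to 415 falls, a JIL-1 change of -1.52 to -1.37, an X gap of -0.12 to -0.10, and 27 to 91 higher and 41 to 62 lower differences. Other normalizations, variance settings, probe set choices, a mean above 6 and the floor at 4 kept both counts of calls within 1.5 times, at 614 to 776 rises and 469 to 652 falls, and JIL-1, with a mean under 6, has no value under a mean above 6. The deviations of equally numbered arrays correlated at -0.03 and -0.28. With 2 JIL-1 5′ arrays the deviations of 1 mirror those of the other, so these values cannot decide whether equal numbers pair the samples. A fit with replicate number as a block gave 170 rises and 219 falls. Of the 30 largest rises and falls, 18 lost their call with no filter and 1, CG13248, with the block. With 2 against 3 arrays, changes of about 0.5 or less rest on the pooled spread, and values near the lower end limit what dim genes can show.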

Other observations

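Some gene groups outside the main account held few calls, where 9.91% of all tested rose and 7.56% fell. Of 12 redox enzyme genes Prx6c fell, while Prx6a, another peroxiredoxin, rose by 0.50 (adjusted p = 0.021) and Gs1, a glutamine synthetase, rose by 0.51 (adjusted p = 0.0137), the last 2 calls being lost without either JIL-1 5′ array (0.0828 to 0.126). Gs1 had log2 values of 9.20 and 9.14 with JIL-1 5′ dsRNA and 8.65, 8.73 and 8.59 with GST dsRNA. Of 10 glycolysis genes Gpdh1, a glycerol-3-phosphate dehydrogenase, fell by 0.55 (adjusted p = 0.025) and none rose. Of 16 genes that bring proteins into the endoplasmic reticulum, Sec61gamma, a channel subunit, fell by 0.34 (adjusted p = 0.0316) and SrpRalpha, a docking receptor, by 0.36 (adjusted p = 0.0403). None of these 3 falls held without either JIL-1 5′ array. Without each GST array in turn, Sec61gamma and SrpRalpha also missed the threshold (limma adjusted p 0.0575 to 0.11). Gpdh1 passed without GST replicate 2 (0.037) but not without GST replicate 1 or 3 (0.0727 and 0.0528). Of 11 siRNA and miRNA pathway genes armi alone passed the threshold.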
